A study of Mus musculus with 2 samples.

Results

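MicroRNA genes of the paralogous Mir193 and Mir365 clusters were measured in hearts of newborn mice. The 4 genes were taken by name from the GENCODE M21 annotation, from 2202 microRNA genes in all: Mir193b and Mir365-1 on chromosome 16, and Mir193a (also called Mir193) and Mir365-2 on chromosome 11. The hearts came from female B6CASTF1/J mice, the first-generation hybrids of a C57BL/6 and a CAST parent, at 4 days of age. No animal carried a treatment in the labels. The study's 2 libraries form 1 group. Replicate 1 is the heart of animal 3 and replicate 2 that of animal 4, under 1 common donor entry. The data therefore show how much of each gene was counted and how far the libraries differed, and hold no comparison of conditions.

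A microRNA gene is transcribed into a long precursor from which a short hairpin is cut, and each arm of the hairpin can give a mature microRNA of about the length of a sequenced read. The mature strand pairs with messenger RNAs mainly through its seed, bases 2 to 8, so microRNAs with the same seed form a family. The miR-193 and miR-365 genes lie side by side in both clusters. In mice they are known from brown fat and muscle cell differentiation, and in human cells miR-193b and miR-365 are known to reduce cyclin D1, a driver of cell division.

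The sequences come first because the hairpins differ in how much sequence they share with another gene. The mature strands below are RefSeq's for GRCm38.p6, written 5′ to 3′, with the seed in capitals. All 4 genes matched the RefSeq table.
miR-193b-3p: aACUGGCCcacaaagucccgcu
miR-193a-3p: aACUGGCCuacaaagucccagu
miR-193b-5p: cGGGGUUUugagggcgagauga
miR-193a-5p: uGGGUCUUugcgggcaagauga
miR-365-3p, the same from Mir365-1 and Mir365-2: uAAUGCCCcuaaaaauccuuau
miR-365-1-5p: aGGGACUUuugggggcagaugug
miR-365-2-5p: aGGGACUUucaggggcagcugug

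The 3p strands of miR-193b and miR-193a shared their seed and 19 of 22 bases. They differed by C9U, G20A and C21G, counted from the 5′ end with the base of miR-193b first. The 5p strands of the same genes shared 17 of 22 bases, and 2 of the 5 differences (G5U and U6C) fell in the seed. The 5p strands of Mir365-1 and Mir365-2 shared their seed and 20 of 23 bases, with the differences U10C, G11A and A19C, the base of miR-365-1-5p first. The 3p strand of miR-365 was the same in both genes. Among the 1738 mature strands of the table, no other gene carried the seed of any of these 3p or miR-365 5p strands, and no other gene carried the seed of either miR-193 5p strand.

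The hairpins below, also from RefSeq, carry in capitals the longest stretch that the paralogs have in common.
Mir193b, chr16:13449523-13449601, plus strand: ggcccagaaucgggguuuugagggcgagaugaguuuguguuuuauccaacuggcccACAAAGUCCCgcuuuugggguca
Mir193a, chr11:79711969-79712034, plus strand: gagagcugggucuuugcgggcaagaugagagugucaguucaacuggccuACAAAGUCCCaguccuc
Mir365-1, chr16:13453840-13453926, plus strand: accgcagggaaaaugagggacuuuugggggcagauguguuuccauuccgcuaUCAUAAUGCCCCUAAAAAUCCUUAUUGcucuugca
Mir365-2, chr11:79726400-79726511, plus strand: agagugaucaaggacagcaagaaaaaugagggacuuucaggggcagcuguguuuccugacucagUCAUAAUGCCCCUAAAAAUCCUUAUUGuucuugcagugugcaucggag

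Mir193b and Mir193a had no more than 10 bases in a row in common, less than a sequenced microRNA. Mir365-1 and Mir365-2 shared 27 bases in a row, which hold the whole miR-365-3p strand with bases to either side. A read that lies within those 27 bases matches both genes. By the layout of the files, multi-mapped reads, those that match several places, are a summary entry and enter no gene's count. Any miR-365-3p read within the 27 bases would then be missing from both genes. All 58 windows of 22 bases in Mir193b and all 45 in Mir193a were found in no other microRNA gene. In Mir365-1 and Mir365-2, 60 of 66 and 85 of 91 windows were found in no other, and the remaining 6 of each were held by the other copy. Of all 2202 genes, 46.9% had at least 1 window in common with a microRNA gene elsewhere, and so did 16.6% of the 373 genes that reached 10 counts in both libraries. A genome sequence was not used here, so matches outside annotated transcripts were not searched.

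**Figure D1:**
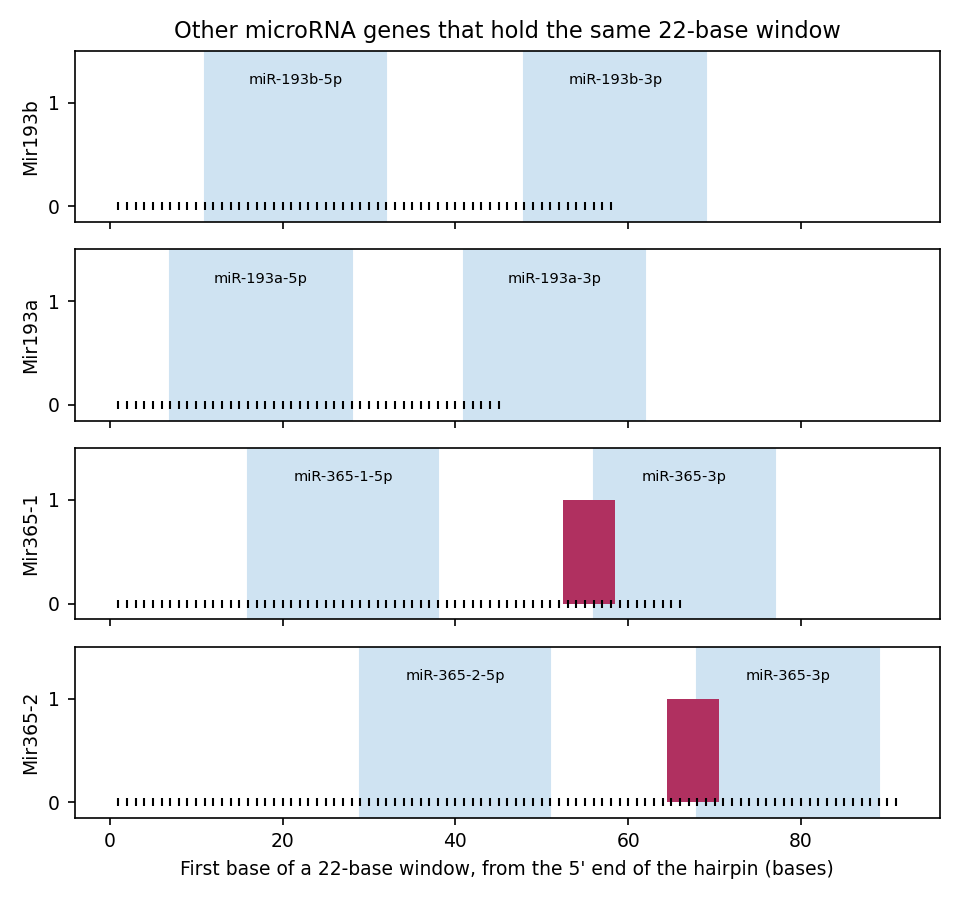
Number of other microRNA genes (vertical axis) that hold the 22-base window starting at each position of the hairpin (horizontal axis, bases from the 5′ end), with the mature strands shaded and each window marked by a tick at 0. The bars appear in Mir365-1 and Mir365-2 alone, 6 windows in each, and include the window that is miR-365-3p.

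The clusters have the same order and orientation, with miR-193 before miR-365 on the plus strand. On chromosome 16 Mir193b and Mir365-1 were 4238 bases apart, and on chromosome 11 Mir193a and Mir365-2 were 14365 bases apart. In GENCODE M21 (mm10) both genes of chromosome 16 lie in an intron of Gm15738, an antisense RNA gene on the minus strand, and overlap 0 of its exons. RefSeq's GRCm38.p6 annotation also places both within the long non-coding RNA genes Gm32817 (chr16:13447952-13476317) and Gm53058 (chr16:13447952-13467230), which run on the plus strand like the microRNAs. The genes of chromosome 11 overlap no other gene in either annotation. Their nearest GENCODE neighbours are the long non-coding RNA genes Gm11205, 6548 bases before Mir193a, and 9130204K15Rik, 55467 bases after Mir365-2. RNAfold predicted a minimum free energy of -34.1 kcal/mol for the Mir193b hairpin of 79 bases, -30.4 kcal/mol for Mir193a (66 bases), -34.5 kcal/mol for Mir365-1 (87 bases) and -39.7 kcal/mol for Mir365-2 (112 bases).

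The libraries held 6417302 and 5662222 counts over microRNA genes on the gene's own strand in replicates 1 and 2. A further 39.6% and 43.2% of all their reads were multi-mapped. Levels are given as CPM, the counts of a gene scaled to the total own-strand counts of its library. The smallest level taken as detectable, 3 counts, was 0.467 CPM for replicate 1 and 0.530 CPM for replicate 2. The heart muscle genes Mir208a, Mir208b and Mir499, which lie in myosin heavy chain genes, together held 20993 and 19146 CPM. Of these 3, Mir499 passed as higher in replicate 2 (2653 and 7487 CPM; a fold over 2 with an adjusted p below 0.05, exact binomial test), and Mir208a held 10883 and 6019 CPM. Markers of other cells were present too, none at 0 in both libraries. The summed levels in replicates 1 and 2 were 47055 and 60331 CPM for the smooth muscle genes Mir143 and Mir145a, 51829 and 73011 CPM for the endothelial gene Mir126a, 718 and 58.5 CPM for the skeletal muscle gene Mir206, 489 and 126 CPM for the erythroid genes Mir451a and Mir144, and 105 and 86.2 CPM for the liver gene Mir122. The leukocyte genes passed in opposite directions, with Mir142 at 240 and 87.4 CPM and Mir223 at 83.1 and 148 CPM, and summed to 323 and 236 CPM. Which cells held the 4 genes was not tested, and in whole hearts fewer cells of a type and less RNA per cell cannot be told apart.

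Mir193b was the most counted of the 4 genes. Mir193b (ENSMUSG00000076972.2) had 855 counts in replicate 1 and 744 in replicate 2, or 133 CPM (95% Clopper-Pearson interval 124 to 142) and 131 CPM (122 to 141). By total counts the hearts gave nearly the same level, 132 ± 1.30 CPM (SD, n = 2), while on library sizes scaled by trimmed mean of M values (TMM) it was 133 ± 20.3 CPM (SD, n = 2). The level by total counts placed Mir193b at rank 160 of the 2202 genes. Mir193a (ENSMUSG00000065395.1) had 205 and 170 counts in replicates 1 and 2, or 31.9 CPM (27.7 to 36.6) and 30.0 CPM (25.7 to 34.9). Its level was 31.0 ± 1.36 CPM by total counts and 31.1 ± 3.69 CPM on TMM-scaled sizes (SD, n = 2), at rank 228. The median of the 373 genes that reached 10 counts in both libraries was 75.2 CPM, so that Mir193b lay above it and Mir193a below it.

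The counts of the miR-365 genes were far fewer. Mir365-1 (ENSMUSG00000065449.1) had 24 counts in replicate 1 and 6 in replicate 2, or 3.74 CPM (2.40 to 5.56) and 1.06 CPM (0.389 to 2.31). Mir365-2 (ENSMUSG00000065489.1) had 12 and 8 counts in replicates 1 and 2, or 1.87 CPM (0.966 to 3.27) and 1.41 CPM (0.610 to 2.78). Their means were 2.40 ± 1.90 CPM and 1.64 ± 0.323 CPM (SD, n = 2), at ranks 367 and 401. Neither reached 10 counts in each library, a mark that 2 of the 4 genes and 373 of all 2202 passed. If multi-mapped reads are left out as the layout implies, these values hold no read from within the 27 shared bases and do not measure how much miR-365-3p the hearts held. The counts are per hairpin, and the files do not tell which arm gave them.

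**Figure D2:**
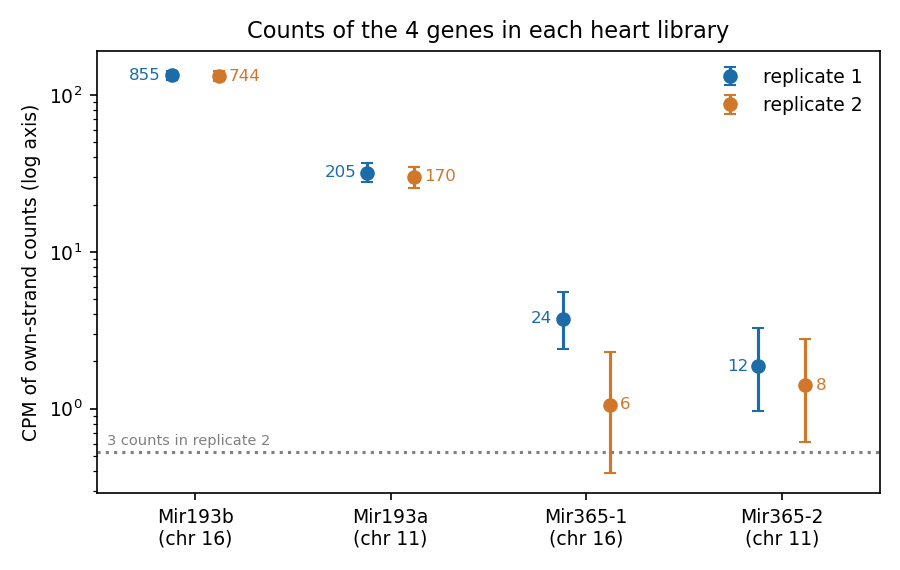
Own-strand CPM on a log axis for each gene in replicate 1 (left point) and replicate 2 (right point), with 95% Clopper-Pearson intervals and the counts written beside the points; the dotted line is 3 counts in replicate 2. The miR-193 genes stand at 132 and 31.0 CPM on average and the miR-365 genes at 2.40 and 1.64 CPM.

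On the gene's opposite strand, all 4 genes had 0 counts in both libraries, which allows up to 0.467 CPM in replicate 1 and 0.530 CPM in replicate 2. Intervals and floors cover the counting error of reads only, not the spread between hearts. No molecular identifiers are named for these reads, so reads copied from the same molecule could not be told apart.

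The chromosome 16 cluster held more counts than the chromosome 11 cluster in both hearts. Together Mir193b and Mir365-1 had 879 and 750 counts in replicates 1 and 2, and Mir193a and Mir365-2 had 217 and 178. Of the 4 genes' counts, 80.2% (77.7 to 82.5) in replicate 1 and 80.8% (78.1 to 83.3) in replicate 2 came from chromosome 16. Nearly all of this came from the miR-193 genes. Between them, Mir193b outnumbered Mir193a 4.17-fold in replicate 1 and 4.38-fold in replicate 2 in counts (exact binomial test within a library against equal counts, two-sided, adjusted over 6 pairs and 2 libraries, p = 1.92e-94 and 6.04e-86). In counts per annotated base of the hairpin gene the ratio was 3.48 and 3.66 (exact adjusted p = 5.03e-71 and 2.35e-65).

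The order below concerns the counts as deposited, which hold no miR-365 read from the 27 shared bases if multi-mapped reads are left out. Per annotated base, Mir193b held 1.67 ± 0.0164 CPM, Mir193a 0.469 ± 0.0206 CPM, Mir365-1 0.0276 ± 0.0218 CPM and Mir365-2 0.0147 ± 0.00289 CPM (SD, n = 2). Each miR-193 gene exceeded each miR-365 gene in both libraries, by at least 8.54-fold in counts (Mir193a over Mir365-1 in replicate 1). With the shared reads uncounted, this gives no order of the microRNAs themselves. Between the miR-365 copies the order turned round. Mir365-1 had 2.00 times the counts of Mir365-2 in replicate 1 (exact adjusted p = 0.0712) and 0.750 times in replicate 2 (exact adjusted p = 0.791). Per annotated base the ratio was 2.57 in replicate 1 (exact adjusted p = 0.00729) and 0.966 in replicate 2 (exact adjusted p = 1). The copies were thus not separated in both hearts. The mature strands are equally long in both copies, and the annotated hairpins differ in length outside them. In replicate 1 the lower p-value per base comes from that difference in length alone, as the counts are the same.

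Shares within a pair of genes do not depend on how a library is scaled, and those of the miR-193 genes hardly moved between the hearts. Mir193b made up 80.7% of its sum with Mir193a (78.2 to 83.0) in replicate 1 and 81.4% (78.7 to 83.9) in replicate 2. The odds ratio of replicate 1 over replicate 2 was 0.953, with a 95% interval from 0.755 to 1.20 (two-sided Fisher's exact test with p-values adjusted over the 6 pairs, p = 0.818). Mir365-1 was in both of the pairs that passed an adjusted p below 0.05 in Fisher's exact test. It stood at 24 counts beside 855 of its neighbour Mir193b in replicate 1 and at 6 beside 744 in replicate 2. Mir193b thus made up 97.3% of that sum (96.0 to 98.2) in replicate 1 and 99.2% (98.3 to 99.7) in replicate 2 (Fisher's exact adjusted p = 0.0213). Against Mir193a the shift was of the same kind, with Mir193a at 89.5% and 96.6% of the sum in replicates 1 and 2 (Fisher's exact adjusted p = 0.0213). Both of these tests rest on the same 30 counts of Mir365-1, and they cover counting error between 2 libraries only. How often other gene pairs shifted between these libraries was not computed. Of all single genes tested, 47.9% differed at an adjusted p below 0.05 in the exact binomial test.

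For Mir365-2 no shift was detectable at this depth. Mir193a made up 94.5% of its sum with its neighbour Mir365-2 in replicate 1 and 95.5% in replicate 2, with an odds ratio of 0.804 and an interval from 0.278 to 2.20 (Fisher's exact adjusted p = 0.818). Mir365-1 made up 66.7% of the miR-365 counts in replicate 1 (49.0 to 81.4) and 42.9% in replicate 2 (17.7 to 71.1). The interval of that odds ratio ran from 0.630 to 11.5 (Fisher's exact adjusted p = 0.396).

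When the libraries were compared across all genes, 0 of the 4 genes passed that threshold, a fold over 2 together with an adjusted p below 0.05 in an exact binomial test on TMM-scaled library sizes. Among the 491 genes tested, 55 passed, a background of 11.2%, of which 3.67% of the genes were higher in replicate 1 and 7.54% in replicate 2. At an unadjusted p under 0.05, 2 of the 4 were found, Mir193b and Mir365-1, beside 51.1% of all genes tested. At an adjusted p below 0.05 alone 1 was found, Mir193b, beside 47.9%. In edgeR's exact test, where 1 common dispersion stands for the spread between libraries, 0 of the 4 were called and 0.815% of all genes tested. That dispersion (0.117, from 373 genes) was estimated from these same 2 libraries taken as 1 group. The difference under test thus set its own spread. A short list of calls was largely fixed in advance, and the result decides nothing about the 4 genes. The 4 genes' median log2 ratio of replicate 1 over replicate 2 was -0.10, beside -0.02 over all genes tested. The test compares these libraries and not conditions.

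Mir365-1 lay closest to the threshold, with a log2 ratio of 1.40 (95% interval 0.16 to 3.07, exact binomial test, adjusted p = 0.0506). It passed on library sizes by total count (log2 ratio 1.73, adjusted p = 0.00701), on DESeq2's size factors (1.42, adjusted p = 0.0351) and on TMM factors from all genes (1.43, adjusted p = 0.0344), all in the same exact test. In edgeR's exact test its adjusted p was 1, which cannot decide the matter because the dispersion came from these same libraries. The skeletal muscle gene Mir206 (log2 ratio 3.28) and the erythroid genes Mir451a (1.64) and Mir144 (1.56) passed as higher in replicate 1 too, as did 1 of the 2 leukocyte genes, Mir142 (1.12), while the other, Mir223 (-1.17), passed as higher in replicate 2. Their part in the ratio of Mir365-1 was not tested. Among other genes with a count sum within 2-fold of each member, 14.3% of 63 passed for Mir193b, 13.9% of 72 for Mir193a, 5.79% of 121 for Mir365-1 and 6.9% of 145 for Mir365-2. Mir193b had a log2 ratio of -0.31 (interval -0.46 to -0.17, exact binomial adjusted p = 4.89e-05), well inside 2-fold. Mir193a had -0.24 (interval -0.54 to 0.06, exact binomial adjusted p = 0.203) and Mir365-2 had 0.04 (interval -1.34 to 1.57, exact binomial adjusted p = 1). Scaling by total counts in place of TMM raised every log2 ratio by 0.33, which brought Mir193b to 0.020 and Mir193a to 0.089. On DESeq2's size factors the ratios were -0.29 and -0.23, and on TMM factors from all genes -0.28 and -0.21, so the direction of both held under these scalings and changed under total counts.

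**Figure D3:**
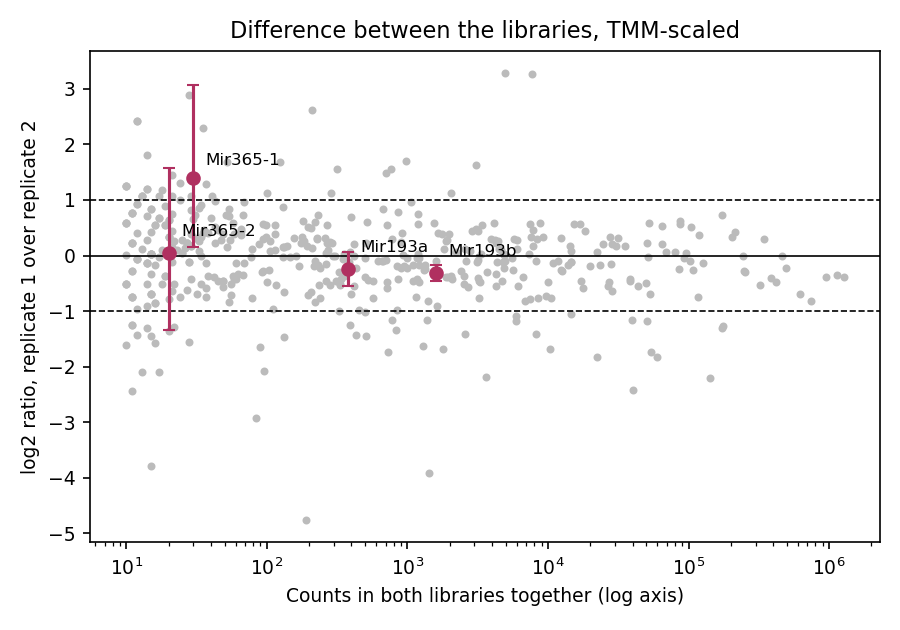
Log2 ratio of replicate 1 over replicate 2 (TMM-scaled) against the counts of both libraries together (log axis) for the 491 genes tested in grey and the 4 genes in red, with 95% intervals; the dashed lines mark 2-fold. The miR-193 genes lie near 0 with short intervals (-0.31 and -0.24), and Mir365-1 lies at 1.40 with an interval from 0.16 to 3.07.

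The genes nearest to each of the 4 in level were found by distance in log2(CPM + 1) over the 2 libraries, among genes that reached 10 counts in both. Neither miR-365 gene reached that mark, so genes with counts as low as theirs were not candidates. Gm47277, with 14 and 8 counts in replicates 1 and 2, was left out in this way. Nearest to Mir193b were Mir672 (136 and 132 CPM in replicates 1 and 2), Mir543 of the imprinted Dlk1-Dio3 region (142 and 121 CPM) and the let-7 gene Mirlet7f-1 (152 and 158 CPM). Nearest to Mir193a were Mir677 (34.0 and 29.1 CPM), Mir194-1 (28.8 and 29.7 CPM) and Mir666 of the Dlk1-Dio3 region (31.2 and 26.0 CPM). Nearest to Mir365-1 were Mir129-1, Mir7051 and Mir363, and to Mir365-2 Mir3109, Mir6980 and Mir5125, with 10 to 31 counts in a library. With 2 libraries, this likeness is one of level only.

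The miR-365 copies were set beside other microRNAs that mice make from a pair of genes with 1 mature strand in common and another that differs. Mir128-1 and Mir128-2, known from neurons, together held 290 and 220 CPM in replicates 1 and 2. Mir138-1 and Mir138-2 held 118 and 99.4 CPM, and Mir218-1 and Mir218-2 held 36.9 and 21.2 CPM. Mir365-1 and Mir365-2 together held 5.61 and 2.47 CPM, below the lower library of each of the other pairs. In each of these pairs 1 mature strand is held by both hairpins and the other by 1 hairpin, and reads that match both copies are in none of these values if multi-mapped reads are left out. The share of the first copy was 90.7% and 90.1% for Mir128-1, 53.2% and 52.8% for Mir138-1 and 23.2% and 27.5% for Mir218-1 in replicates 1 and 2, with overlapping 95% intervals for each, as for Mir365-1.

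Because the clusters are known from brown fat, their levels were read beside other microRNA genes with a known part in that tissue in mice. Of 10 genes known to promote brown fat, 9 could be tested between the libraries, of which 1 was higher in replicate 1, 1 was higher in replicate 2 and 7 did not pass, beside 3.67% and 7.54% of all genes tested. By the mean of both libraries, 6 of the 10 exceeded Mir193b, 1 lay between Mir193b and Mir193a, and 3 lay below Mir193a. Among the 373 genes that reached 10 counts in both libraries, Mir193b ranked 160 and Mir193a 228. With so few genes, chosen by name, these counts show level only and no tie of the 4 genes to brown fat. Mir378a, in an intron of Ppargc1b, held 103526 and 107719 CPM in replicates 1 and 2, and Mir455, in a collagen gene, held 1358 and 1489 CPM. Mir30b held 255 and 268 CPM, Mir30c-1 311 and 241 CPM and Mir30c-2 439 and 325 CPM. Mir203 held 85.6 and 219 CPM and was higher in replicate 2 (log2 ratio -1.69, exact binomial adjusted p = 2.46e-126). Mir32 held 56.9 and 62.7 CPM, and Mir182 had 138 and 68 counts. Mir196a-2 had 11 counts and 1 count and passed as higher in replicate 1 (log2 ratio 2.43, exact binomial adjusted p = 0.0415). Mir196a-1 had 0 counts and 1 count. Reads that match both copies of Mir196a, or both of Mir30c, are in none of these values if multi-mapped reads are left out.

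Of 8 genes known to restrain brown fat, 1 was higher in replicate 2 and 7 did not pass, beside 11.2% of all genes tested that passed in either direction. By the mean of both libraries, 6 of the 8 exceeded Mir193b and 2 lay below Mir193a. These counts too stand beside rank 160 for Mir193b and rank 228 for Mir193a among the 373 genes, and show level only. Mir93 held 6235 and 4309 CPM in replicates 1 and 2, its neighbour Mir106b 1741 and 1572 CPM, and Mir34a, a gene induced by p53, 1055 and 1002 CPM. Mir27b, which passed, held 3042 and 5455 CPM (log2 ratio -1.18), Mir27a 743 and 1000 CPM, and Mir155 810 and 465 CPM. Mir133a-1 held 5.61 and 7.59 CPM and Mir133a-2 1.87 and 0.353 CPM. As for the miR-365 copies, reads that match both Mir133a copies are in neither value if multi-mapped reads are left out. Their low values need not show how much miR-133a the hearts held. The median level was 207 CPM over the promoting list and 950 CPM over the restraining list. It was 75.2 CPM over the 373 genes that reached 10 counts in both libraries, and 0 over all 2202 genes. The lists are unlike either set, as 8 of 10 promoting and 7 of 8 restraining genes reached 10 counts in both libraries.

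The list of brown fat markers (Mir182, Mir183, Mir96, Mir203 and Mir455) held 1483 and 1742 CPM in replicates 1 and 2, of which Mir455 held 1358 and 1489 CPM and Mir203 85.6 and 219 CPM, while Mir183 had 117 and 119 counts and Mir96 had 4 and 3 counts. Of its 4 genes tested, 1 (Mir203) was higher in replicate 2, beside the same 7.54% of all genes tested. Mir203 is also known from epithelial cells. Among other epithelial genes, Mir205 (log2 ratio -4.76) and Mir200b (-1.45) passed as higher in replicate 2. Mir200a (-0.36), Mir200c (0.23) and Mir141 (0.32) did not pass. Which cells gave the counts of Mir203, of Mir455 or of the other genes of the list was not tested, so their sum is no measure of brown fat. The part of fat around the heart in the levels of Mir193b and Mir365-1 was not tested.

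**Figure D4:**
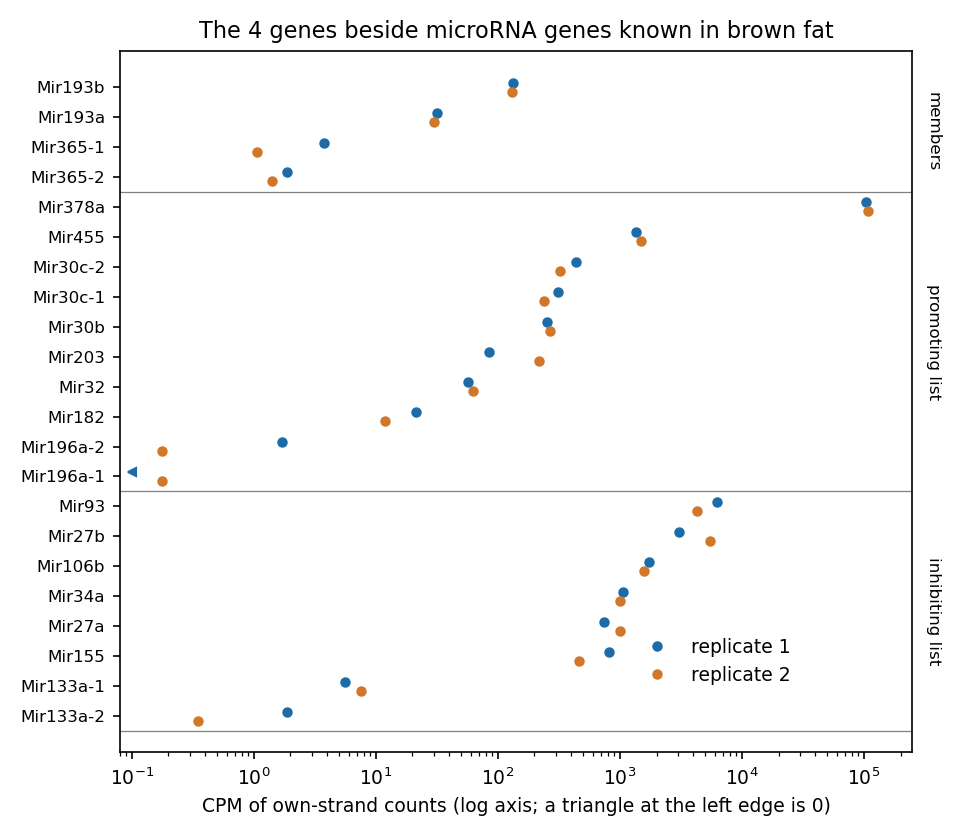
Own-strand CPM (log axis) of the 4 genes and of the genes known to promote or restrain brown fat, ordered by mean level within each list, with replicate 1 drawn above replicate 2; a triangle at the left edge is 0. Mir193b at 132 CPM and Mir193a at 31.0 CPM fall within the range of both lists. The miR-365 genes lie near the low ends, beside Mir196a-2 and Mir133a-2. If multi-mapped reads are left out, the values hold no read that matches several genes, such as the copies of a microRNA gene.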

How the data were processed

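MicroRNA libraries of 2 hearts were analysed. Per the labels, RNA was size-selected to under 30 nt. The authors deposited unnormalized read counts for each microRNA gene and library, made with mm10 and annotation M21 according to the deposited descriptions. Which aligner, counter and trimming they used is not given in the sources used here. The column taken as the gene's own strand held 84.0% and 82.8% of stranded counts. Multi-mapped reads are a summary entry (39.6% and 43.2% of reads) and, as the layout of the files implies, are in no gene's count. All summary entries, 55.6% and 58.0% of reads, were left out of library sizes.

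CPM used total own-strand counts. Genes with at least 10 counts in the sum were compared by an exact conditional binomial test (two-sided) on TMM-scaled sizes (factors 1.12 and 0.891, edgeR 4.0.16, R 4.3.3), with Benjamini-Hochberg adjustment, 0.5 added to counts in ratios. TMM factors came from these genes, following earlier processing of the data, a choice made after factors from all genes had been tried and had called Mir365-1. Library sizes by total count, DESeq2 1.42.0 size factors, edgeR's exact test and other settings served as alternatives. The dispersion in edgeR's test was estimated from the same 2 libraries that it compared, so that test could call few genes. By chi-square (709 per degree of freedom, 491 genes) the libraries are not the same library deposited again. The labels number different animals. The exact binomial and Fisher p-values cover counting error only, not the spread between hearts. Hairpin windows were searched on both strands of the microRNA genes, and of all M21 transcripts as an alternative, in place of the genome planned. CAST variants were not examined. RNAfold 2.7.2, Python 3.11.15, scipy 1.17.1, pandas 2.3.3, numpy 2.4.6 and matplotlib 3.10.9 were used.

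Named genes were the 4 members, genes with a member's seed, the 3 nearest in level to each, and neighbouring genes. The lists for brown fat, cell type markers and paired gene copies were named too. Epithelial genes were added beside Mir203 after the results were seen. The members and lists were chosen with earlier results of these data known.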

Additional observations from a re-analysis of the deposited data

How the results depend on the processing

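Of 129 values under alternative settings, 108 kept their direction and their side of the threshold or stayed within the spread between the libraries. Some of these could not change. Pair shares and orders in the column without strand rest on the same counts. The log2 ratios themselves do not depend on the fold threshold, the filter or the p threshold. With CPM scaled to all reads, levels were 57.1 for Mir193b, 13.4 for Mir193a, 1.05 for Mir365-1 and 0.712 for Mir365-2, since the total then includes summary entries. In the column without strand they were 165, 38.7, 2.98 and 2.05 CPM, the genes' counts being the same and the library totals smaller. With at least 1 count in each library as the mark, 4 genes passed in place of 2. Between the libraries, the 55 genes called became 4 in edgeR's exact test with a common dispersion, 97 at a fold over 1.5 and 235 at an adjusted p alone, the last chosen after seeing the data. The drop to 4 was largely fixed in advance, as that dispersion came from the same 2 libraries. Of the 4 genes, 1 in place of 0 was called with total counts, DESeq2's size factors and TMM factors from all genes (Mir365-1, the last setting added after seeing the data) and at an adjusted p alone (Mir193b). By total counts the log2 ratios of Mir193b (0.020) and Mir193a (0.089) changed sign. Per annotated base, Mir365-1 over Mir365-2 in replicate 1 rose to 2.57 and passed. The counts were the same, and the mature strands are equally long in both copies. Without replicate 1 or without replicate 2, mean levels ran from 131 to 133 CPM for Mir193b, 30.0 to 31.9 CPM for Mir193a, 1.06 to 3.74 CPM for Mir365-1 and 1.41 to 1.87 CPM for Mir365-2, and comparisons between the libraries have no value. The search of the genome was not run. No paired analysis was possible because the samples form 1 group. Depth limits the miR-365 genes, at 6 to 24 counts a library.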
